A study of Mus musculus with 23 samples.

Results

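The homeobox transcription factors described here were 76 genes of the 8251 that a mouse expression array names by a single symbol. They were taken by symbol alone: Hoxa to Hoxd with a number, the numbered Dlx, Msx, Pax, Lhx, Meis, Pbx and Pitx genes, the numbered sine oculis homologues such as Six2, and the Nkx and Prrx genes. They had 90 of the 12422 probe sets tested, and where a gene had several, the probe set with the highest mean over the 23 arrays stood for it. All groups held RNA of primary mouse embryonic fibroblasts, which are connective tissue cells, isolated from e14.5 embryos. The labels give every group the genotype C57/BLACK6, ATF1 -/+, so cells without that Atf1 genotype were not part of the comparisons. Cultures first spent 48 hours in 1% serum to starve, and then 2 hours with 200 µM 4-thiouridine and tritiated cytidine, in 10% serum (called treated) or in 1% serum (called starved). Cells take up 4-thiouridine, a modified uridine, and RNA made in those hours carries it and was captured on an organomercurial matrix as newly transcribed RNA. The groups were newly transcribed RNA of treated and of starved cells (4 arrays each), amplified total RNA of treated (4) and starved cells (3), and unamplified total RNA, called total RNA below, of treated and of starved cells (4 each). The protocol in the labels speaks of amplification for all samples, and only the titles tell total from amplified total RNA. The titles call the arrays biological replicates, and how many embryos stood behind each is not given in the sources used here.

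The homeobox encodes a DNA-binding domain, and the proteins that carry it switch programmes of position and cell identity on or off in the embryo. Hox genes lie in clusters whose order along the chromosome follows the order in which they are used along the body, and fibroblasts keep part of that positional pattern in culture. Msx and Dlx genes act in limb and face mesenchyme under bone morphogenetic protein signals, Prrx genes mark limb and face mesenchyme, and Pitx1 sets hindlimb identity. Meis and Pbx proteins bind DNA together with Hox proteins. Six2 and Six4 act in muscle and kidney precursors, and Lhx, Nkx and Pax genes pattern neural tube, gut, heart, face and other organs. Several Pax genes carry the paired box without a complete homeobox and came in through their symbols.

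Promoter sequences are shown for 4 members to which the serum comparison below returns, since each was among those that lay on 1 side in every replicate pair of newly transcribed and of total RNA. They are RefSeq sequences of GRCm38.p6, from 250 bases before to 50 after the annotated start, for Dlx2 (chr2:71546705-71547004, minus strand), Msx2 (chr13:53472731-53473030, minus strand), Msx1 (chr5:37824536-37824835, minus strand) and Hoxa5 (chr6:52204538-52204837, minus strand). They are written 5′ to 3′ on the strand of the gene. Capitals mark TGACG, the core of the cyclic AMP response element that CREB and ATF proteins bind, and CCAAT, the CCAAT box, each on either strand. The marked motifs do not overlap.
Dlx2: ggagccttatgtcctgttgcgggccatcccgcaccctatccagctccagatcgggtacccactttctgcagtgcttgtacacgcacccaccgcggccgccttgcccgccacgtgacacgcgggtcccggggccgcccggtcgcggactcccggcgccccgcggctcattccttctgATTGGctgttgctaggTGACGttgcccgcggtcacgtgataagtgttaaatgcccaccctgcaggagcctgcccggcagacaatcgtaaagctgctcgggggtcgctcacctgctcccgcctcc
Msx2: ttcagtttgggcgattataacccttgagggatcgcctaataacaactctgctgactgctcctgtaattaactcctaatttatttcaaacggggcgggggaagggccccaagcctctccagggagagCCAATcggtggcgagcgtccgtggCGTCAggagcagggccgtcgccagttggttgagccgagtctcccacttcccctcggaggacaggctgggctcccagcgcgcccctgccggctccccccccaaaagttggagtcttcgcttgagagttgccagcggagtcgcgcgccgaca
Msx1: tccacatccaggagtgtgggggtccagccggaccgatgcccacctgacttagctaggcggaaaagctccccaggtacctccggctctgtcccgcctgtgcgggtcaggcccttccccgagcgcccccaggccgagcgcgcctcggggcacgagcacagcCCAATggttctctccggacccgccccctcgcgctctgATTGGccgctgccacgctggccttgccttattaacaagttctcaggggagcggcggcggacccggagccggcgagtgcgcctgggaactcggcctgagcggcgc
Hoxa5: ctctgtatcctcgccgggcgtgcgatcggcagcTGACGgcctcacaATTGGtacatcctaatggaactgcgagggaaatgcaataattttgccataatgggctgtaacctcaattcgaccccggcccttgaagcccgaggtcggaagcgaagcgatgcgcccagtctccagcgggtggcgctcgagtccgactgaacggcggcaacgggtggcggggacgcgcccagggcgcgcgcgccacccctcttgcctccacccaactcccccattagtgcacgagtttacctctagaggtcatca
Counted to the first base of each motif, with -1 as the base before the start, Dlx2 had the CCAAT box at -74 and TGACG at -58, and Msx2 had CCAAT at -124 and TGACG at -100. Msx1 had CCAAT at -91 and at -54 and no TGACG in this window. Hoxa5 had TGACG at -217 and CCAAT at -204. Of 32851 promoters of this length, 20.8% held TGACG on either strand and 37.4% held CCAAT. Promoters were found for 55 of the 76 members, and of their 64 promoters 26.6% held TGACG and 53.1% the CCAAT box. The GC box, GGGCGG, stood in 59.4% of the members' promoters and in 35.7% of all. TATAAA, the TATA box, stood in 10.9% of the members' and 13.6% of all promoters, and TGANTCA, an AP-1 site, in 4.69% of the members' and 7.81% of all. These are matches of letters on either strand and not measured binding sites.

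The labelled cell type was checked with 18 fibroblast markers, of which 16 lay above the median of all tested probe sets. The 2 brightest, the collagen genes Col1a2 and Col5a2, lay at percentiles 99.8 and 99.7, while the probe sets of Vim (38.2) and Tcf21 (12.1) lay below the median. Of 10 macrophage markers 7 lay above the median, of 11 neuron and glia markers 5, of 9 endothelial markers 2, of 12 skeletal muscle markers 2, of 10 epithelial markers 1, of 6 cartilage and bone markers 1 and of 4 erythroid markers 0. In RNA of whole cultures, fewer cells of a type and less RNA per cell cannot be told apart. The deposited signals of an array had medians between 24.2 and 72.05 for newly transcribed, 7.3 and 75.2 for amplified total and 20 and 54.2 for total RNA, and arrays were quantile normalized. For the control transcript GAPDH, the 3' minus the 5' probe set on the log2 scale was 2.13 ± 0.82 on the 8 newly transcribed arrays and 1.70 ± 0.67 on the 7 amplified arrays, and it was -0.21 ± 0.12 on the 8 arrays of total RNA (SD). By their whole profiles the arrays of these 2 kinds of RNA fell into 2 clusters. Arrays 1 and 4 of both newly transcribed groups and of the treated amplified group, with arrays 1 and 3 of the starved amplified group, stood apart from the remaining arrays, all total RNA included. Signals below are normalized signals, and differences are on the log2(signal + 16) scale ± the SE of the fit, a scale that shrinks differences of signals that are small beside 16.

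Most homeobox genes gave dim signals in these fibroblasts, and 16 of 76 lay above the median of all tested probe sets. In order of brightness these were Prrx2, Msx1, Pbx3, Pitx1, Six2, Hoxd8, Hoxa4, Msx2, Hoxb8, Dlx2, Prrx1, Hoxd11, Hoxa11, Lhx8, Hoxb7 and Six4. Probes differ in brightness at the same amount of RNA, so this is an order of signals and not of transcripts. The other probe sets of Hoxa4 lay at percentiles 32.9, 29.2 and 0.459, that of Hoxb8 at 17.2 and those of Six4 at 46.5 and 45.0. All of these lay below the median, so these genes counted as bright through a single probe set each. The other probe sets of Pbx3 (73.9 and 60.2) and Hoxd8 (57.4) lay above it. Both Prrx genes were among them, and so were 2 of 3 Msx, 2 of 10 Hoxa, 2 of 9 Hoxb, 2 of 7 Hoxd, 1 of 2 Pbx, 1 of 2 Pitx, 1 of 6 Dlx and 1 of 6 Lhx genes and 2 of 5 sine oculis homologues (Six2 and Six4). None of the 8 Nkx, 8 Pax, 5 Hoxc and 3 Meis genes was. The brightest Hoxc gene lay at percentile 48.2, the brightest Pax gene at 47.5, the brightest Meis gene at 43.4 and the brightest Nkx gene at 41.5. Prrx2 lay at percentile 95.1, Msx1 at 89.6 and Pbx3 at 88.2, and Six4 (50.9) was the dimmest gene above the median. The probe sets of 6 members carry a suffix that flags relaxed probe choice or shared sequence. It is r for Hoxa4, Hoxa6 and Hoxb8, f for Hoxc9, g for Hoxd1 and s for Meis1. Their signals may hold other transcripts.

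**Figure D1:**
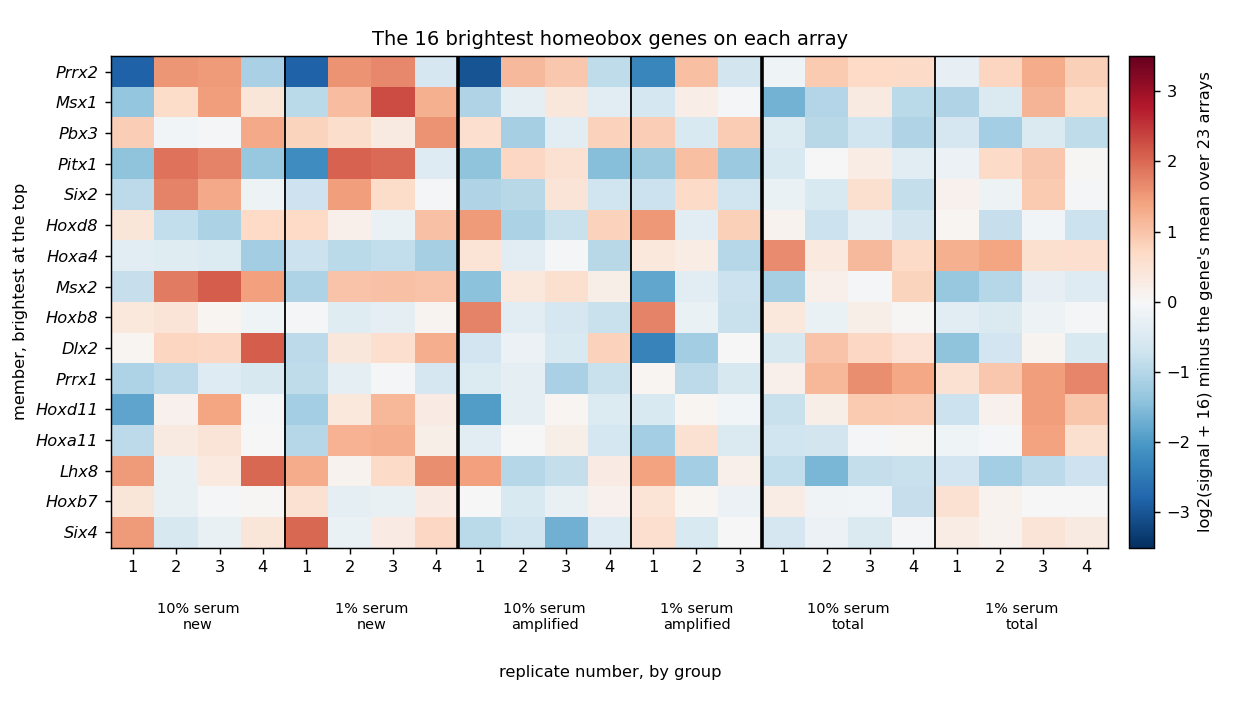
Each row is 1 of the 16 homeobox genes above the median and each column 1 array, with 10% serum left of 1% serum within newly transcribed, amplified total and total RNA. Colour gives log2(signal + 16) minus the gene's own mean over 23 arrays. Prrx2 is dark blue on array 1 of both newly transcribed groups (104 and 103) and red on array 3 of both (2368 and 2712).

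Among the bright members, replicates of 1 group could lie further apart than the serum conditions. Prrx2, a mesenchymal homeobox gene, had newly transcribed signals of 104, 2467, 2368 and 372 in treated cells, against 103, 2517, 2712 and 545 in starved cells. Arrays 1 and 4 were low in both conditions. In amplified total RNA it had 89.3, 1862, 1612 and 446 in treated cells, against 157, 1732 and 532 in starved cells, and the low arrays were 1 and 4 in treated and 1 and 3 in starved cells. In total RNA the spread was smaller, with 748, 1597, 1369 and 1328 in treated cells, against 674, 1411, 2082 and 1481 in starved cells. Pitx1, the hindlimb gene, was low on the same newly transcribed arrays, with 54.7, 681, 603 and 58.3 in treated cells, against 24.9, 764, 719 and 119 in starved cells. Lhx8, a gene of face mesenchyme and forebrain neurons, was highest on them, with 175, 40.9, 70.6 and 262 in treated cells, against 153, 59.2, 93.7 and 196 in starved cells. These are the arrays of the cluster described above, and its part in these levels was not tested. Hoxd13, a gene of the distal limb, varied between replicates of total RNA, with 3.38, 9.6, 30.4 and 48.99 in treated cells, against 2.45, 5.02, 62.2 and 62.2 in starved cells. It was low on arrays 1 and 2 and higher on arrays 3 and 4 in both conditions.

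The first question was how homeobox genes responded to 2 hours of serum. Limma called 0 of 76 members at an adjusted p below 0.05 in newly transcribed RNA, where it called 0% of all tested probe sets, 0 of 76 in total RNA, where it called 0.121% of all, and 0 of 76 in amplified total RNA, where it called 0% of all. At an unadjusted p below 0.05 there were 6 members in newly transcribed RNA (6.44% of all probe sets), 5 in total RNA (4.94%) and 4 in amplified total RNA (1.41%). Same-numbered arrays of treated and starved cells varied together in newly transcribed and in total RNA. Limma with the replicate number as a block called 0 of 76 members in both, where it called 1.74% and 0.483% of all probe sets. Unless stated, SEs of single genes' serum differences below are with the block in newly transcribed and total RNA and without it in amplified total RNA. Values below with a single array left out are from fits without the block, so they do not use the pairing of same-numbered arrays. The members' median difference was -0.07 in newly transcribed RNA, against 0.01 over all probe sets, and 51 of 76 were lower in 10% serum (67.1%, against 49% of all). In total RNA it was -0.10, against -0.01, with 57 of 76 lower (75%, against 54.3%). Amplified total RNA gave -0.09, against -0.01, with 43 of 76 lower (56.6%, against 51.4%). Of the 16 bright members 11 were lower in each kind of RNA, where 52.2%, 56.9% and 51.7% of all bright probe sets were lower in newly transcribed, total and amplified total RNA. The members' differences spanned -0.92 (Hoxa10) to 0.66 (Msx2) in newly transcribed RNA. They spanned -0.90 (Msx1) to 1.05 (Dlx2) in total and -0.97 (Six4) to 1.03 (Dlx2) in amplified total RNA. Summed macrophage markers, of which 7 of 10 were above the median, reached 2368 to 6562 on newly transcribed arrays of treated cells and 1209 to 4386 on those of starved cells. In total RNA they reached 2799 to 6512 in treated and 2879 to 6048 in starved cells. Summed skeletal muscle markers, of which 2 of 12 were above the median, did not overlap in newly transcribed RNA, with 312.1 to 1077 in treated and 145.2 to 291.6 in starved cells. Actin gene Acta1 held most of that sum, with a mean of 598 in treated and 98.3 in starved cells, while the muscle regulator Myod1 had 44.5 and 35.03. Summed epithelial markers, of which 1 of 10 was above the median, did not overlap there either, with 150 to 187.4 in treated and 95.72 to 143.6 in starved cells. In total RNA both sums overlapped, with muscle markers at 248.1 to 545.3 in treated and 212.7 to 321.5 in starved cells and epithelial markers at 140.1 to 172.3 in treated and 146.4 to 230.3 in starved cells. The part of these markers in the members' differences was not tested.

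Replicate pairs gave a common direction for some members. In newly transcribed RNA 24 members lay on 1 side in all 4 pairs, 31.6% of them, where 28.2% of all probe sets did. Of these 24 members 17 were lower in 10% serum and 7 higher, so 70.8% were lower, against 51.4% of such probe sets. In total RNA 21 members lay on 1 side in all 4 pairs, 27.6%, where 19.2% of all did. There 17 were lower and 4 higher, so 81% were lower, against 54.8% of such probe sets. Dlx2, Lhx1 and Msx2 were higher in all 4 pairs of both kinds of RNA, 3.95% of the members and 2.92% of all probe sets. Dlx5, Hoxa5, Meis1, Msx1, Pbx2 and Six4 were lower in all 4 pairs of both, 7.89% and 3.47%. The groups themselves mostly overlapped. Newly transcribed signals of treated cells all lay above those of starved cells for 2 members, Lhx1 and Hoxb13, as for 2.13% of all probe sets, and below for 2, Hoxa5 and Hoxa2, as for 1.7% of all. In total RNA 0 members lay above (1.52% of all) and 1, Six4, lay below (1.43% of all). In amplified total RNA the groups did not overlap for 6 members (2.41% of all): Hoxc8 was higher, and Hoxa10, Pbx2, Hoxa2, Dlx5 and Pax8 were lower. Lhx1, Hoxb13, Hoxa5, Hoxa2, Dlx5, Meis1 and Pax8 are named after their values were seen.

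**Figure D2:**
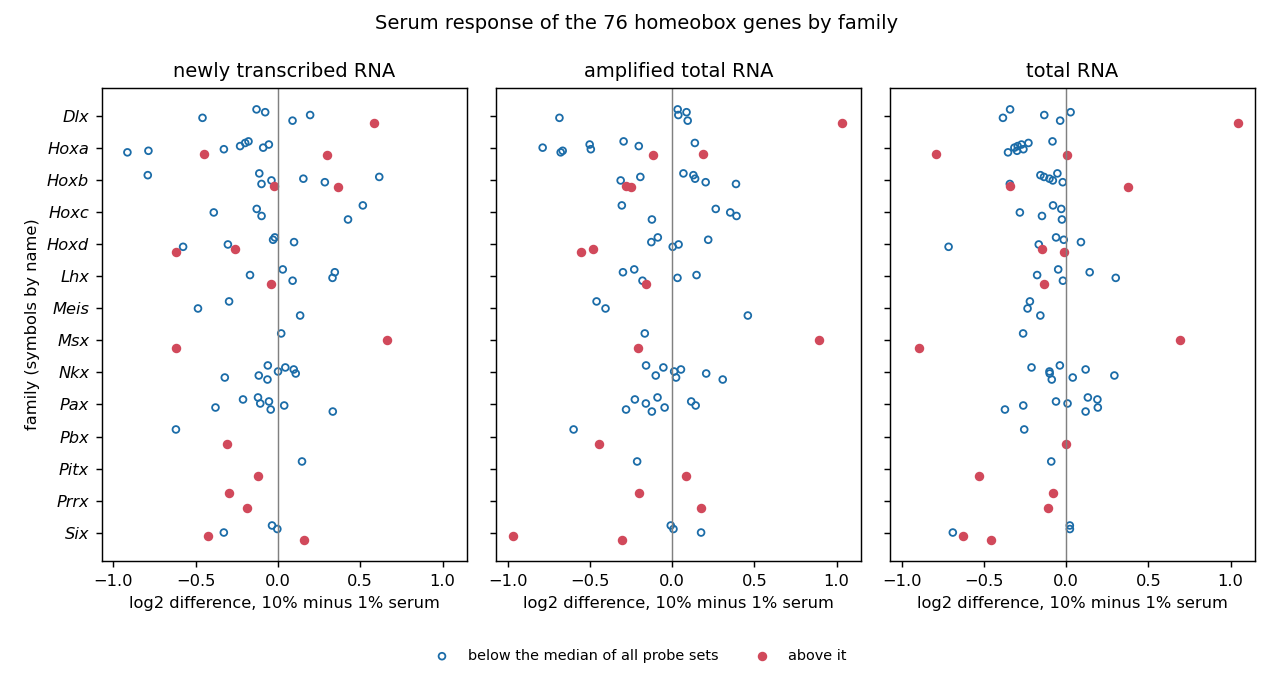
Each point is 1 of the 76 homeobox genes, placed by its log2 difference in 10% minus 1% serum, in rows by family and in 1 panel for each kind of RNA. Filled points are the 16 genes above the median of all probe sets and open points the others. Dlx2 lies furthest to the right in total RNA (1.05) and Msx1 furthest to the left (-0.90).

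The 2 bright Msx genes lay on opposite sides. Msx2, a repressor in limb bud, tooth and skull mesenchyme, had newly transcribed signals of 44.4, 358, 442 and 270.0 in treated cells, against 33.9, 193, 199 and 196 in starved cells. It was higher in treated cells in all 4 pairs, while array 1 of both conditions lay far below the others and made the groups overlap. The difference was 0.66 ± 0.74 without the block and 0.66 ± 0.16 with it (limma adjusted p = 0.093), and it was 1.31 without treated array 1 and 0.14 without starved array 1. Total RNA had 31.6, 104, 84.4 and 164 in treated cells, against 26.4, 36.98, 69.97 and 61.9 in starved cells, a difference of 0.69 ± 0.22 with the block (limma adjusted p = 0.368) that was 1.06 without treated array 1 and 0.42 without treated array 4. Amplified total RNA had 23.1, 119, 140.2 and 107 in treated cells, against 14.1, 66.2 and 47.3 in starved cells, a difference of 0.90 ± 0.57 (limma adjusted p = 1) that was 1.35 without treated array 1 and 0.48 without starved array 1. In all 3 kinds of RNA array 1 was the lowest of its group.

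Msx1, which with Msx2 keeps limb and craniofacial mesenchyme undifferentiated, was lower in 10% serum. Newly transcribed RNA had 167, 717, 1267 and 617 in treated cells, against 229, 973, 2242 and 1087 in starved cells. Each treated array lay below the starved array of its number, and array 1 was the lowest in both conditions. The difference was -0.62 ± 0.79 without the block and -0.62 ± 0.13 with it (limma adjusted p = 0.0708), and it was -0.07 without treated array 1 and -1.23 without starved array 1. In total RNA it had 133, 214, 564 and 228 in treated cells, against 208, 314, 1053 and 722 in starved cells, again lower in all 4 pairs, with a difference of -0.90 ± 0.19 with the block (adjusted p = 0.206) that was -0.52 without starved array 3. Amplified total RNA had 209, 352, 603 and 339.8 in treated cells, against 289, 532 and 443 in starved cells. There the difference of -0.21 ± 0.37 turned to 0.36 with values as deposited and to 0.03 without treated array 1. Msx3, which acts in the dorsal neural tube, was dim, at percentile 36.2.

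Dlx2, a distal-less gene of branchial arch mesenchyme and forebrain, had the highest difference of the members in total RNA. Its total RNA signals were 53.5, 187, 151 and 129 in treated cells, against 22.02, 48.4, 93.4 and 53.7 in starved cells. All 4 pairs were higher in treated cells, and only treated array 1 lay within the range of starved cells. The difference was 1.05 ± 0.40 without the block (limma adjusted p = 0.895) and 1.05 ± 0.18 with it (adjusted p = 0.116). Newly transcribed RNA had 89.6, 154, 152 and 427 in treated cells, against 37.6, 116, 136 and 231 in starved cells, higher in all 4 pairs with a difference of 0.58 ± 0.17 with the block (adjusted p = 0.126), and it was 0.16 without starved array 1 and 0.90 without starved array 4. Amplified total RNA had 47.7, 71.6, 54.4 and 163 in treated cells, against 4.16, 27.6 and 86.3 in starved cells, a difference of 1.03 ± 0.60 (limma adjusted p = 1) that was 0.46 without starved array 1 and 1.63 without starved array 3. Dlx1, the neighbour of Dlx2 on chromosome 2, was dim. Its serum difference was -0.08 ± 0.24 in newly transcribed RNA and 0.03 ± 0.09 in total RNA. Dlx5, a gene of bone-forming mesenchyme, had newly transcribed signals of 4.06, 20.01, 20.5 and 26.2 in treated cells, against 10.6, 36.6, 30.6 and 45.1 in starved cells. It was lower in all 4 pairs, with differences of -0.46 ± 0.11 in newly transcribed RNA (limma with the block, adjusted p = 0.0846) and -0.38 ± 0.11 in total RNA (adjusted p = 0.311).

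**Figure D3:**
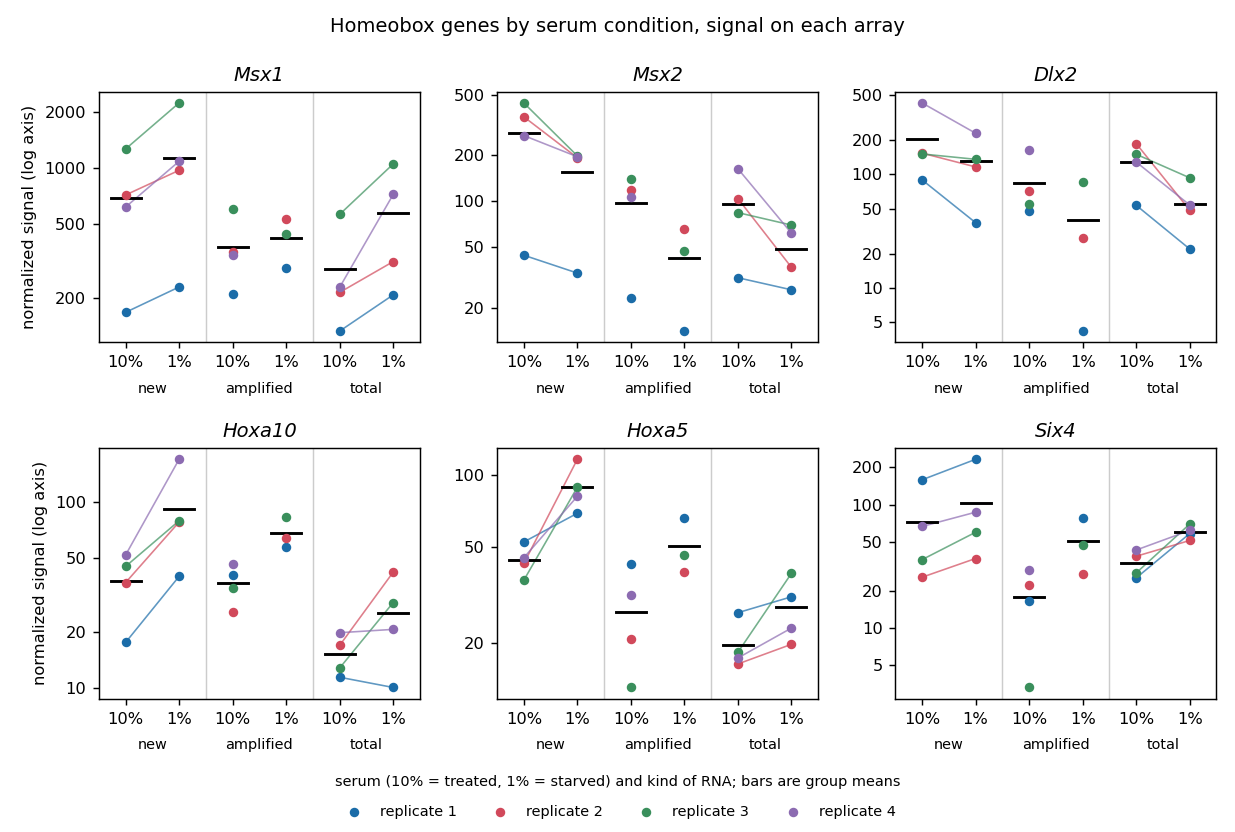
Normalized signal on each array (points, coloured by replicate number, log axis) for 6 homeobox genes, with 10% serum left of 1% serum within newly transcribed, amplified total and total RNA. Lines join same-numbered arrays in newly transcribed and total RNA, where the numbers paired, and black bars are group means. Msx2 and Dlx2 lie higher in 10% serum in every joined pair, and Msx1, Hoxa5 and Six4 lie lower in every joined pair.

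Hoxa genes mostly lay on the lower side. Of 10 Hoxa genes 9 were lower in 10% serum in newly transcribed RNA (median -0.22), 9 in total RNA (median -0.28) and 8 in amplified total RNA (median -0.39), and 0 were called. Hoxa10, which patterns the proximal limb and the reproductive tract, had newly transcribed signals of 17.6, 36.9, 45.1 and 51.9 in treated cells, against 39.9, 78.2, 79.4 and 170.0 in starved cells. Every pair was lower in treated cells, and the groups overlapped through starved array 1 alone. Its difference was -0.92 ± 0.38 without the block (limma adjusted p = 0.743) and -0.92 ± 0.16 with it (adjusted p = 0.0527), and it was -0.61 without starved array 4. Amplified total RNA had 40.7, 25.8, 34.4 and 46.5 in treated cells, against 57.4, 63.9 and 83.6 in starved cells, with no overlap (-0.68 ± 0.21, limma adjusted p = 1). Total RNA of Hoxa10 was dimmer, with 11.4, 16.98, 12.8 and 19.9 in treated cells, against 10.1, 42.1, 28.9 and 20.7 in starved cells (-0.35 ± 0.18 with the block, limma adjusted p = 0.541), a difference that was -0.56 without starved array 1 and -0.17 without starved array 2.

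Hoxa5, which acts in lung and cervical patterning, had newly transcribed signals of 52.5, 42.7, 36.4 and 45.1 in treated cells, against 69.1, 116, 88.7 and 81.3 in starved cells. The groups did not overlap, with a difference of -0.79 ± 0.17 without the block (limma adjusted p = 0.374) and -0.79 ± 0.16 with it (adjusted p = 0.0716). Total RNA had 26.7, 16.3, 18.2 and 17.3 in treated cells, against 31.03, 19.7, 38.9 and 23 in starved cells (-0.30 ± 0.12 with the block, limma adjusted p = 0.469). Hoxa11, a gene of the forearm segment of the limb, had total RNA signals of 26.2, 28.4, 49.2 and 54.6 in treated cells, against 46.4, 50.4, 166 and 86.2 in starved cells, lower in all 4 pairs (-0.79 ± 0.18 with the block, limma adjusted p = 0.234). In newly transcribed RNA its difference was -0.45 ± 0.19 with the block. Hoxa4, a gene of the neck and upper trunk, was the Hoxa gene on the higher side in newly transcribed RNA (0.30 ± 0.13) and in total RNA (0.01 ± 0.27), both with the block. It had -0.12 ± 0.46 in amplified total RNA, without the block. The other probe sets of Hoxa4 had 0.04, -0.07 and -0.02 in newly transcribed RNA and -0.003, 0.19 and 0.03 in total RNA. Hoxa9, which acts in blood precursors and limb, had -0.23 ± 0.15 in newly transcribed RNA and -0.29 ± 0.12 in total RNA, both with the block. In amplified RNA it had -0.20 ± 0.33 without the block.

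Counts for the other Hox clusters follow, and differences between clusters were not tested. Of 9 Hoxb genes 5 were lower in newly transcribed (median -0.02), 8 in total (median -0.10) and 4 in amplified total RNA (median 0.07). Hoxb8, a trunk gene also used in blood precursors, had total RNA signals of 115, 71.4, 101 and 89.7 in treated cells, against 63.1, 56.4, 73.6 and 81.7 in starved cells, higher in all 4 pairs (0.37 ± 0.12 with the block, limma adjusted p = 0.384), and its other probe set had 0.07. Hoxb7 and Hoxb6, its neighbours in the cluster, had -0.34 ± 0.14 and -0.34 ± 0.11 in total RNA, lower in all 4 pairs, and -0.02 ± 0.12 and -0.10 ± 0.12 in newly transcribed RNA. Of 7 Hoxd genes 6 were lower in newly transcribed (median -0.26) and 6 in total RNA (median -0.06). Hoxd8, a trunk and limb gene, had newly transcribed signals of 217, 80.6, 65.4 and 269.5 in treated cells, against 266, 183, 132 and 337 in starved cells, lower in all 4 pairs (-0.62 ± 0.17 with the block, limma adjusted p = 0.109), and -0.01 ± 0.10 in total RNA. Hoxd11, a forearm gene, had -0.26 ± 0.16 in newly transcribed and -0.15 ± 0.13 in total RNA. Of 5 Hoxc genes 3 were lower in newly transcribed and 5 in total RNA. Hoxc5 and Hoxc6 were the Hoxc genes on the higher side in newly transcribed RNA, in all 4 pairs, with 0.52 ± 0.18 (limma with the block, adjusted p = 0.171) and 0.43 ± 0.14 (adjusted p = 0.152).

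**Figure D4:**
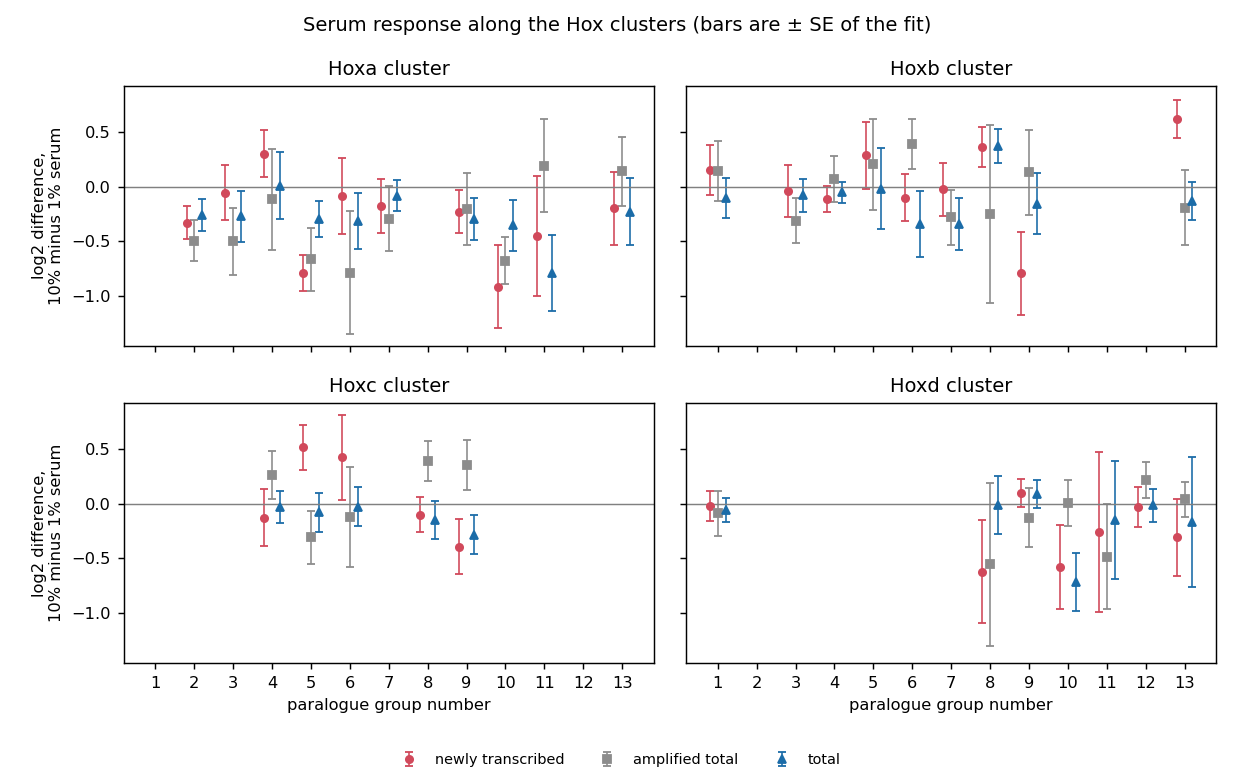
Log2 difference in 10% minus 1% serum ± SE of the fit without a block (y axis) for each measured Hox gene by its number in the cluster (x axis), in 1 panel per cluster, for newly transcribed, amplified total and total RNA. Of 10 Hoxa genes 9 lie below 0 in newly transcribed RNA, where Hoxa10 is lowest at -0.92. In total RNA 9 of 10 Hoxa, 8 of 9 Hoxb, 5 of 5 Hoxc and 6 of 7 Hoxd genes lie below 0.

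Pbx2, a cofactor of Hox proteins, had newly transcribed signals of 15.2, 49.97, 59.6 and 53.7 in treated cells, against 45.6, 82.8, 83.98 and 83.7 in starved cells. It was lower in all 4 pairs (-0.62 ± 0.13 with the block, limma adjusted p = 0.0739), with -0.25 ± 0.12 in total and -0.60 ± 0.34 in amplified total RNA. Pbx3 had -0.31 ± 0.15 in newly transcribed and 0.00 ± 0.11 in total RNA, and its other 2 probe sets had -0.19 and -0.16 in newly transcribed and -0.20 and -0.24 in total RNA. All 3 Meis genes, which encode further Hox cofactors, were lower in total RNA and 2 of 3 in newly transcribed RNA, where Meis2, named after its values were seen, had -0.49 ± 0.12 with the block (limma adjusted p = 0.0981). Six4, a muscle precursor gene, had total RNA signals of 25.5, 38.1, 27.9 and 42.8 in treated cells, against 58.3, 51.2, 69.6 and 61.7 in starved cells. The groups did not overlap (-0.63 ± 0.14, limma adjusted p = 0.358, and 0.218 with the block). In newly transcribed RNA it had 159, 25.8, 35.8 and 66.5 in treated cells, against 233, 36.6, 59.7 and 86.8 in starved cells, lower in all 4 pairs (-0.43 ± 0.11 with the block, limma adjusted p = 0.0992), a difference that was 0.01 without starved array 1 and -0.83 without treated array 1. In amplified total RNA it had 16.5, 22.4, 3.3 and 29.6 in treated cells, against 77.9, 27.2 and 46.8 in starved cells (-0.97 ± 0.38, limma adjusted p = 1). The other 2 probe sets of Six4 had -0.28 and -0.54 in newly transcribed RNA, -0.09 and -0.29 in total RNA and -0.23 and -0.74 in amplified RNA, all on the same side.

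Six2, a kidney and tendon precursor gene, was lower in all 4 pairs of total RNA (-0.46 ± 0.11 with the block, limma adjusted p = 0.239) and had 0.16 ± 0.17 in newly transcribed RNA. Pitx1 was also lower in all 4 pairs of total RNA (-0.53 ± 0.10, limma adjusted p = 0.159) and had -0.12 ± 0.26 in newly transcribed RNA. Prrx1 and Prrx2 had -0.30 ± 0.14 and -0.19 ± 0.13 in newly transcribed and -0.08 ± 0.14 and -0.11 ± 0.15 in total RNA, all with the block. Lhx8 had -0.04 ± 0.17 and -0.13 ± 0.11. Lhx1, a gene of kidney and head organizer, had newly transcribed signals of 24.8, 28.4, 29.1 and 23.8 in treated cells, against 16.7, 21.1, 19.1 and 14.3 in starved cells, with no overlap (0.33 ± 0.10 with the block, limma adjusted p = 0.142). Of 8 Nkx genes 5 were lower in newly transcribed RNA, between -0.32 (Nkx3-2, a cartilage gene) and 0.11, and of 8 Pax genes 6 were lower, between -0.38 and 0.33.

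Serum responses were then compared between kinds of RNA, which asks whether newly made RNA and the standing pool moved apart. Limma called 0 of 76 members for newly transcribed minus amplified total RNA, where it called 0% of all probe sets, and 0 of 76 for newly transcribed minus total RNA, where it called 0% of all. At an unadjusted p below 0.05 there were 2 members (1.62% of all probe sets) and 1 member (2.41% of all). The 1 member against total RNA was Hoxb13, a tail and prostate gene, with a difference of responses of 0.75 ± 0.25 (limma adjusted p = 0.999). With a block for each replicate pair within each kind of RNA, a fit chosen after seeing the data, limma again called 0 of 76 members against total RNA and 0% of all probe sets, with 7 members at an unadjusted p below 0.05 (10.8% of all). In that fit Hoxb13 had 0.75 ± 0.18 (limma adjusted p = 0.294). Its newly transcribed signals were 14.9, 20.01, 24.7 and 23.9 in treated cells, against 3.46, 8.55, 6.46 and 14.6 in starved cells, and its total RNA signals were 15.8, 6.57, 2.17 and 10.9 in treated cells, against 13.9, 9.14, 9.29 and 10.8 in starved cells. The newly transcribed groups did not overlap, and all these signals were dim. The response in newly transcribed minus that in total RNA, with a block for each pair, was 0.28 ± 0.24 for Msx1, -0.04 ± 0.29 for Msx2 and -0.47 ± 0.26 for Dlx2 (limma adjusted p = 0.713, 0.978 and 0.551).

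Newly transcribed RNA was also set against amplified total RNA of the same serum condition. In 10% serum limma called 1 of 76 members, Hoxb6, where it called 4.05% of all probe sets. With the replicate block it called 6, all higher in newly transcribed RNA (Dlx1, Dlx2, Hoxa9, Hoxb6, Msx2 and Pbx2), where it called 21.1% of all. In 1% serum it called 2, Dlx1 and Hoxb6, where it called 3.17% of all. The members' median difference was 0.13, against 0.02 over all probe sets, in 10% serum and 0.12, against -0.01, in 1% serum, and 13 and 12 of the 16 bright members were higher in newly transcribed RNA. The other 3 and 4 were lower, where 45.8% of all bright probe sets were lower in 10% serum and 47.8% in 1% serum. Summed fibroblast markers, of which 16 of 18 were above the median, reached 12860 to 21030 in newly transcribed and 26800 to 32990 in amplified total RNA in 10% serum. In 1% serum they reached 14540 to 21580 in newly transcribed and 27690 to 28690 in amplified total RNA. Their part in the calls was not tested. Signals did not overlap for 3 members on the higher side (Hoxb6, Hoxc4 and Dlx1) in 10% serum, as for 4.56% of all probe sets, and for 0 on the lower side, against 6.54% of all. In 1% serum there were 6 on the higher side (Hoxc8, Hoxa5, Hoxb6, Hoxc4, Lhx9 and Dlx1), against 7.7% of all, and 2 on the lower side (Pax5 and Hoxc5), against 8.91% of all. Hoxc4, Lhx9 and Pax5 are named after their values were seen. Hoxb6 and Dlx1 passed the threshold narrowly. The count without a block in 10% serum was 0 when any of the 8 arrays other than treated newly transcribed array 4 was left out. That in 1% serum was 0 without starved amplified array 2 or starved newly transcribed array 1, 2 or 3, and 1 without starved amplified array 1 or starved newly transcribed array 4. The differences stayed about as large, between 0.999 and 1.29 for Hoxb6 in 10% serum, and in 1% serum between 1.495 and 1.70 for Hoxb6 and between 0.995 and 1.23 for Dlx1.

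Hoxb6, a trunk and limb gene, had in treated cells 59.7, 52.8, 70.9 and 31.7 in newly transcribed RNA, against 16.8, 8.83, 25.4 and 13 in amplified total RNA. The groups did not overlap, and the difference was 1.12 ± 0.24 (limma adjusted p = 0.0454). In starved cells it had 62.8, 49.8, 71.9 and 46.6 in newly transcribed RNA, against 4.63, 11.3 and 8.61 in amplified total RNA (1.61 ± 0.19, limma adjusted p = 0.0224). Its total RNA signals overlapped those of newly transcribed RNA, with 80.7, 28.1, 45.96 and 27.8 in treated and 95.7, 42.1, 53.2 and 50.7 in starved cells. Newly transcribed minus total RNA gave 0.23 ± 0.30 in 10% and -0.02 ± 0.22 in 1% serum, both smaller than their SE. The difference from amplified total RNA was thus not seen against total RNA.

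Dlx1, an interneuron and branchial arch gene, had in treated cells 18.6, 13.7, 7.202 and 54.96 in newly transcribed RNA, against 3.07, 2.27, 1.27 and 6.45 in amplified total and 1.43, 4.904, 2.27 and 4.504 in total RNA. In starved cells it had 27.2, 29.2, 11.5 and 23.04 in newly transcribed RNA, against 1.73, 1.53 and 2.89 in amplified total and 2.01, 4.65, 2.83 and 2.08 in total RNA. Every newly transcribed signal lay above every signal of both kinds of total RNA. Newly transcribed minus amplified total RNA was 0.91 ± 0.33 in 10% serum (limma adjusted p = 0.192, and 0.0366 with the block) and 1.08 ± 0.21 in 1% serum (adjusted p = 0.0459). The value in 10% serum was 0.59 without treated newly transcribed array 4. Dlx2 was higher by 1.06 ± 0.16 with the block in 10% serum (limma adjusted p = 0.0085), in all 4 pairs, and had 1.51 ± 0.67 in 1% serum (adjusted p = 0.294). Without treated newly transcribed array 4 its difference in 10% serum was 0.66.

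Msx2 was higher by 1.22 ± 0.19 with the block in 10% serum (limma adjusted p = 0.0104), in all 4 pairs, and had 1.45 ± 0.61 in 1% serum (adjusted p = 0.272). Its difference in 10% serum was 1.87 without treated newly transcribed array 1 and 0.76 without treated amplified array 1. Hoxa9 was higher by 0.56 ± 0.15 (limma adjusted p = 0.0421) and Pbx2 by 0.52 ± 0.14 (adjusted p = 0.0494), both with the block and in all 4 pairs. Without treated amplified array 1 the difference of Pbx2 was 0.23, and without treated newly transcribed array 1 it was 0.82. With pair 2 left out the block called 0 members, and with pair 1 left out it called 13, alternatives that were chosen after seeing the data.

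**Figure D5:**
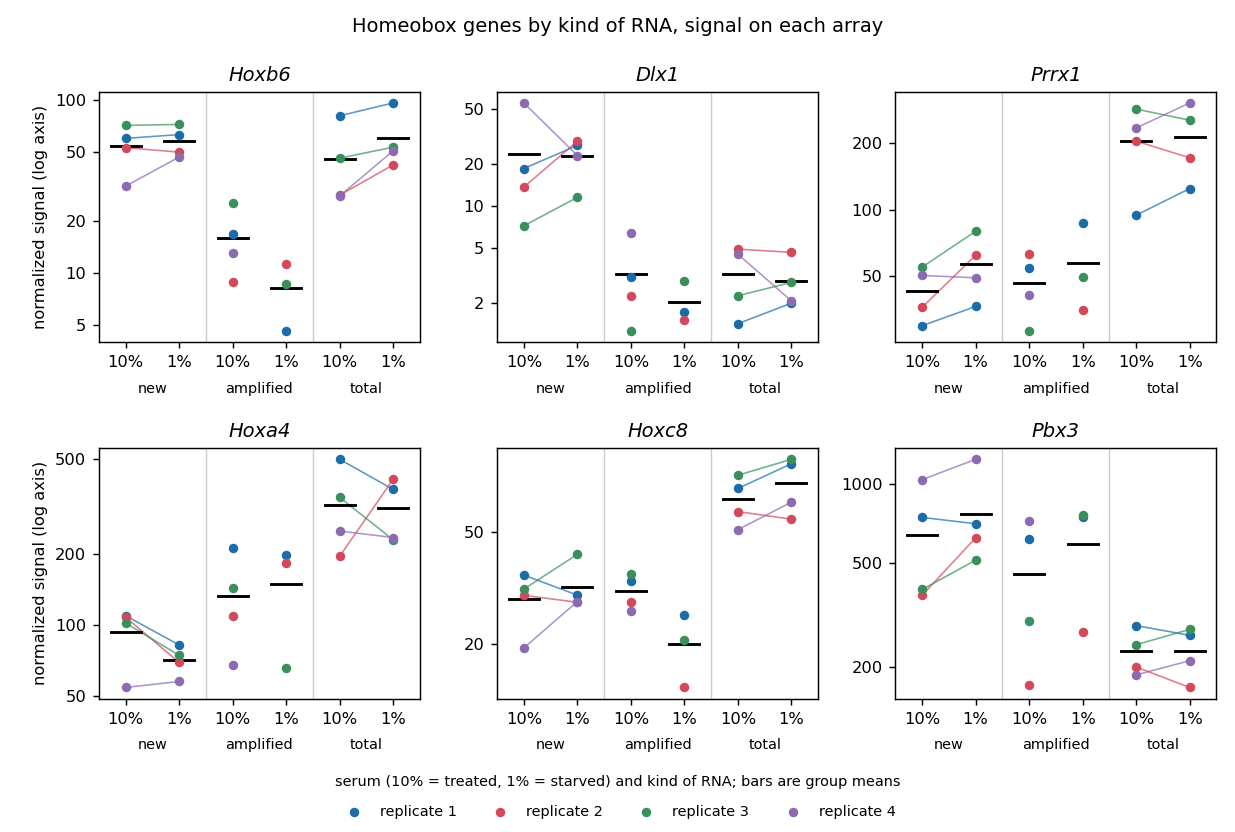
Normalized signal on each array (points, coloured by replicate number, log axis) for 6 homeobox genes, with 10% serum left of 1% serum within newly transcribed, amplified total and total RNA. Black bars are group means and lines join same-numbered arrays in newly transcribed and total RNA. Hoxb6 is lowest in amplified total RNA, Dlx1 is highest in newly transcribed RNA, and Prrx1 and Hoxc8 are highest in total RNA.

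Newly transcribed RNA had another 3' to 5' balance of the GAPDH control than total RNA (2.13 against -0.21). Arrays 1 and 4 of both newly transcribed groups, on which Lhx8 was highest, also stood in the cluster described above, which held no total RNA array. The part of that balance and of that cluster in the following calls was not tested. For newly transcribed against total RNA in 10% serum limma called 7 members, 9.21% of them, where it called 19.1% of all probe sets. Higher in newly transcribed RNA were Pbx3, Lhx8, Hoxa5 and Hoxc4, and lower were Hoxa4, Prrx1 and Hoxc8. In 1% serum it called 16 members, 21.1%, where it called 27.4% of all. Higher were Pbx3, Lhx8, Hoxa10, Hoxa5, Pbx2, Hoxa9, Hoxc4, Pax3, Meis2, Lhx9 and Dlx1, and lower were Hoxa4, Prrx1, Hoxc8, Pax4 and Hoxc5. Against amplified total RNA, Prrx1 had -0.08 in 10% and 0.02 in 1% serum. Hoxc8 had 0.0443, 0.0498, -0.122 and -0.259 in its pairs in 10% serum and was higher without overlap in 1% serum. Hoxa10 had -0.393, 0.238 and -0.0612 on same-numbered arrays in 1% serum. The differences of these genes from total RNA were thus not seen against amplified total RNA. Hoxa5, Hoxc4, Lhx9 and Dlx1 were higher than amplified total RNA without overlap in 1% serum, and Hoxc5 was lower. Pax3 and Pax4 are named after their values were seen. Lhx8 had 1.90 ± 0.49 in 10% serum (limma adjusted p = 0.0307) and 1.81 ± 0.31 in 1% serum (adjusted p = 0.00379). Its total RNA signals were 21.9, 6.83, 22.4 and 24.2 in treated and 26.8, 14.1, 20.4 and 25.2 in starved cells, below each of its newly transcribed signals. Pbx3 had 1.31 ± 0.34 (limma adjusted p = 0.0306) and 1.62 ± 0.28 (adjusted p = 0.00392). Its other 2 probe sets differed less: 1 had means of 189 in newly transcribed against 143 in total RNA in 10% serum and 199 against 168 in 1% serum, and the other had 84.5 against 79.3 in 10% serum and, on the other side, 87.7 against 96.96 in 1% serum. Prrx1, a limb mesenchyme gene, had -1.83 ± 0.32 (limma adjusted p = 0.00639) and -1.61 ± 0.29 (adjusted p = 0.00458), and Hoxa4 had -1.58 ± 0.31 (adjusted p = 0.0111) and -1.87 ± 0.22 (adjusted p = 0.00071). Of its 3 other probe sets 2 lay on the other side. They had means of 19.8 and 18.98 in newly transcribed against 10.8 and 11.1 in total RNA in 10% serum, and 18.1 and 19.4 against 10.9 and 7.32 in 1% serum.

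The last comparison set amplified against unamplified total RNA, with the serum condition as a covariate, and gives how far these 2 preparations of total RNA differed. Limma called 6 of 76 members, 7.89% of them, where it called 20.3% of all probe sets, and the GAPDH 3' to 5' balance differed here too (1.70 against -0.21). Its part in the calls was not tested. Prrx1 had 54.7, 63, 28.3 and 41.03 in treated and 87.4, 35.3 and 49.8 in starved cells in amplified total RNA, against 94.2, 203, 284 and 233 in treated and 124, 171, 253 and 302 in starved cells in total RNA. No amplified array reached the lowest total RNA array, and the difference was -1.69 ± 0.24 (limma adjusted p = 0.000267). Hoxc8, a thoracic gene, had 33.6, 28.2, 35.5 and 26.2 in treated and 25.3, 13.95 and 20.6 in starved cells in amplified total RNA, against 71.7, 59.2, 79.9 and 51.1 in treated and 87.8, 55.7, 91.03 and 64.02 in starved cells in total RNA. Again the 2 preparations did not overlap (-1.04 ± 0.14, limma adjusted p = 0.000168). Hoxb6 had -1.23 ± 0.21 (adjusted p = 0.00109), with the signals given above.

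Hoxa4 was lower, with a difference of -1.13 ± 0.27 (limma adjusted p = 0.00911). It had 212, 109, 143 and 67.9 in treated and 197, 183 and 65.9 in starved cells in amplified total RNA, against 499, 195, 345 and 249 in treated and 373, 412, 229 and 234 in starved cells in total RNA. Its 3 other probe sets had 0.48, 0.13 and -0.03. Hoxa10 was higher, by 0.90 ± 0.16 (limma adjusted p = 0.00141), and so was Pbx3, by 0.96 ± 0.30 (adjusted p = 0.035). Pbx3 had 616, 171, 300.2 and 719 in treated and 746, 272 and 757 in starved cells in amplified total RNA, against 288, 199.8, 243 and 186 in treated and 264, 167, 278 and 211 in starved cells in total RNA. Its high amplified arrays were those of the cluster described above, which held no total RNA array. With that cluster as a block, only starved amplified array 2 and treated amplified arrays 2 and 3 were set against total RNA. In that fit the difference of Pbx3 was 0.10 ± 0.19 (limma adjusted p = 0.795). Its difference lay between 0.83 and 1.16 over all arrays left out in turn, while its call was lost without starved amplified array 1 or 3, treated amplified array 1 or 4, starved total array 2 or 4, or treated total array 2, 3 or 4, and its other 2 probe sets had -0.01 and -0.43. Hoxa4 was not called with the cluster as a block (-0.997 ± 0.36, limma adjusted p = 0.0734), while Hoxa10, Hoxb6, Hoxc8 and Prrx1 were. Hoxa4, Hoxa10, Hoxb6, Hoxc8 and Prrx1 were called whichever single array was left out.

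Symbols that mark opposite-strand transcripts of members were kept out of the count. Hoxa11os, Dlx1as and Dlx6os2 had 5 probe sets. The 2 of Hoxa11os had serum differences of -0.29 and -0.68 in newly transcribed RNA and -0.29 and -0.61 in total RNA, on the same side as Hoxa11. In amplified total RNA they had 0.11 and -0.27. Dlx1as had 0.44 in newly transcribed and -0.13 in total RNA, on the other side from Dlx1 in both. The 2 of Dlx6os2 had -0.10 and 0.28 in newly transcribed RNA and 0.12 and -0.06 in total RNA. Another 3 probe sets listed several members (Hoxd3 with Hoxd4, Hoxb7 with Hoxb8) and were not named. The second probe set of Hoxd8 had -0.39 in newly transcribed and -0.14 in total RNA.

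Genes that act on or with homeobox genes were counted in the same fits. With the replicate block, 1 of 19 Polycomb genes, which keep Hox genes silent, fell in newly transcribed RNA in 10% serum, the methyltransferase gene Ezh1 (-0.78 ± 0.13, limma adjusted p = 0.0461), and 0 passed in total RNA. Of 15 retinoic acid genes 1 rose in both, Aldh1a3, which makes retinoic acid (0.92 ± 0.14 in newly transcribed RNA, limma adjusted p = 0.0417, and 1.15 ± 0.11 in total RNA, adjusted p = 0.0267). Of 26 limb and patterning signal genes 1 fell in newly transcribed RNA, the hedgehog effector Gli2 (-0.87 ± 0.14, limma adjusted p = 0.0417). Of 40 other homeobox genes 1 rose in total RNA, the TALE repressor Tgif1 (0.71 ± 0.09, limma adjusted p = 0.0439). Of 10 Trithorax and MLL genes and 8 cofactor genes 0 passed in either. In 10% serum the block called 9 Polycomb genes higher and 0 lower in newly transcribed than in amplified RNA, among them Eed (1.57 ± 0.24), Asxl1 (1.33 ± 0.33), Bmi1 (1.20 ± 0.20) and Jarid2 (1.15 ± 0.15), in the fit that called 21.1% of all probe sets. It called 4 limb and patterning signal genes higher and 0 lower, 5 other homeobox genes higher and 2 lower, 3 cofactor genes higher and 1 lower, 2 retinoic acid genes higher and 2 lower, 1 Trithorax and MLL gene higher and 2 lower, and 1 fibroblast marker higher and 7 lower. Without the block it called 0 of 19 Polycomb genes there, Tgif1 (1.48 ± 0.24, limma adjusted p = 0.0189) and the Groucho family co-repressor gene Tle1 (0.85 ± 0.17, adjusted p = 0.0363). In 1% serum it called the methyltransferase gene Ezh2 (1.31 ± 0.25, limma adjusted p = 0.0444), Tgif1 (1.36 ± 0.26, adjusted p = 0.0456) and Tle1 (1.25 ± 0.25, adjusted p = 0.0496). The shares of all probe sets called in these fits are those given above.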

How the data were processed

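Expression was measured on 23 single-colour arrays in 6 groups taken from the sample titles. The deposited values are intensities, 1 per probe set and array; the summarisation software is not given in the sources used here. They held 12488 probe sets, of which 66 controls were left out and 12422 tested. Values were quantile normalized over all arrays, taken as log2(value + 16) and fitted with limma 3.58.1 (lmFit and eBayes, R 4.3.3), two-sided, with Benjamini-Hochberg adjustment over all tested probe sets and a threshold of 0.05; the fit was tested on simulated data. The titles call the replicates biological, but no source states separate embryos or litters behind them, so p-values may not cover the spread between embryos or litters.

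Same-numbered arrays were checked for shared deviations from their group means. Correlations were 0.703 to 0.802 for newly transcribed and 0.225 to 0.704 for total RNA of treated and starved cells, and 0.56 to 0.725 for newly transcribed and amplified RNA in 10% serum, so these numbers were taken to pair arrays, from the data and not from the labels. In the other comparisons at least 1 correlation was below 0.1.

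The naming rule picked 26 members: those called in any comparison but newly transcribed against unamplified total RNA (an alternative), the 16 brightest and the extremes of each serum response. Values on every array are given for those the results turn on and for a few others, named after their values were seen. The members and all lists were chosen with earlier results of these data known. Probe sets with several symbols and antisense symbols were left out. Alternatives were the pseudocount, the normalization, dim probe sets, all groups in one fit, any probe set of a gene, the replicate block, a block for each pair within each kind of RNA, the array cluster as a block, unamplified total RNA as the comparison and leaving out each array.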

Additional observations from a re-analysis of the deposited data

Results flagged for a closer look

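Among the 26 members that the naming rule picks, 130 groups of 4 arrays were looked at for a single array far from the others, and 8 had one; chance gives about 1 in 20 groups. On array 1 of newly transcribed RNA, Msx2 had 33.9 in starved cells, where the other arrays had 193.1 to 198.7. Pbx2 had 15.2 on that array in treated cells, where the others had 49.97 to 59.58, and 45.6 in starved cells, where the others had 82.8 to 83.98. Hoxa4 had 54.5 on newly transcribed array 4 of treated cells (others 102 to 109.4). On newly transcribed array 3 of starved cells, Hoxc8 had 41.7 (others 28.11 to 29.81) and Hoxd13 had 39.9 (others 1.865 to 4.943). Lhx8 had 6.83 on total RNA array 2 of treated cells (others 21.91 to 24.18), and Hoxb8 had 325 on amplified array 1 of treated cells (others 43.15 to 62.2).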

How the results depend on the processing

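The counts of 0 called members in the 3 serum responses and both differences of responses were 0 under every alternative run. In newly transcribed relative to amplified RNA, 10% serum, the count of 1 became 0 with a pseudocount of 1, with values as deposited, with arrays scaled to one median and without dim probe sets, 2 with all 6 groups in one fit, 6 with the replicate block, 4 with the array cluster as a block, 7 against unamplified total RNA, and 0 to 1 without single arrays. With the replicate block and pair 1, 2, 3 or 4 left out, chosen after seeing the data, it was 13, 0, 2 and 3. In 1% serum the count of 2 became 0 with a pseudocount of 1, with values as deposited, without dim probe sets and with the replicate block, 1 with arrays scaled to one median, 4 with the array cluster as a block, 16 against unamplified total RNA, and 0 to 3 without single arrays. For amplified against unamplified total RNA the count of 6 became 3 without dim probe sets, where fewer genes are tested, and 13 with the replicate block, which adds Hoxc5, Hoxc6, Hoxd11, Hoxd13, Lhx8, Nkx3-2 and Prrx2 although the numbers were not taken to pair arrays there, and it was 5 to 9 without single arrays. The sign changed for Six4 in the newly transcribed serum response (-0.83 to 0.01024 without single arrays, in fits without the block). Its replicate pairs there had -0.509, -0.331, -0.547 and -0.317, all on the lower side. The sign changed for Msx1 in the amplified serum response (0.36 as deposited, and -0.46 to 0.02616 without single arrays). For Hoxb6 in 1% serum it changed against unamplified total RNA (-0.0168 ± 0.2229). With the array cluster as a block the sign also changed in amplified against unamplified total RNA for Hoxc6 (-0.002441), Lhx8 (-0.06386) and Prrx2 (0.48). That fit set only starved amplified array 2 and treated amplified arrays 2 and 3 against total RNA. The changed values of Six4, Hoxb6 and Hoxc6 lay close to 0. The cause was not tested. As deposited, the median of all probe sets moved to -0.18, 0.21 and 0.25 in the newly transcribed, total and amplified serum responses, and the members' medians there were -0.18, 0.00 and 0.11. Most members were dim, and the number of arrays limits the precision of all differences.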
